A study of Arabidopsis thaliana with 10 samples.

Results

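The 10 genes described here encode activators of group IX of the Arabidopsis ethylene response factor (ERF) family: ORA59, ERF1, ERF15, ERF1A, ERF2, ERF5, ERF6, ERF13, ERF104 and ERF105. The rule that picks them names loci and no measured value, though it was set with earlier results of these data known, and they are 10 of the 33602 loci in the count table. ERF1 (AT3G23240) and ERF1A (AT4G17500) are different genes despite their names. RNA-Seq was made from whole 8-d-old Col-0 seedlings grown in long days, in 10 libraries that form 5 groups of 2. Line P1-12 carries a dexamethasone (Dex)-inducible dCas9-KRAB repressor together with P1, a guide RNA driven by the U6-26 promoter against MORF2, a plastid RNA editing factor. Line KRAB carries the inducible repressor without a guide. P1-12 was grown with the solvent DMSO, with 0.025 μM Dex or with 0.25 μM Dex, and KRAB with DMSO or with 0.25 μM Dex. Each line is a single transgenic line, so a property of one insertion cannot be told apart from one of the construct, and no untransformed plant is among these libraries.

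ERF proteins bind DNA through an AP2/ERF domain, and many of group IX recognise the GCC box found upstream of defence genes such as the plant defensin PDF1.2. ORA59 and ERF1 lie downstream of the ethylene factor EIN3 and join ethylene and jasmonate signals, and the jasmonate factor MYC2 acts against that branch. ERF5, ERF6 and ERF104 are substrates of the MAP kinases MPK3 or MPK6, which act early in immunity.

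Totals ran from 9139050 to 40544617 counts per library, and the deepest were KRAB (+DMSO) replicate 2 and KRAB (+0.25 μM Dex) replicate 1. MORF2, the targeted gene, was at 113 and 118 CPM (counts scaled to a common library size by TMM) in P1-12 (+DMSO), at 109 and 106 at 0.025 μM Dex, at 52.3 and 56.0 at 0.25 μM Dex, and between 116 and 124 in the 4 KRAB libraries. It fell at 0.25 μM (log2 fold change -1.09, adjusted p = 2.04e-08) and did not pass the test at 0.025 μM (-0.10, adjusted p = 0.469). From quantitative PCR, the study itself reports that MORF2 transcript was already reduced in P1-12 at the lower dose. Not passing the test here therefore does not show that MORF2 was unchanged at that dose. Root and shoot markers were both present. Summed over 11 root markers, libraries held between 276 and 353 CPM, and over 10 shoot markers between 934 and 1056 CPM outside P1-12 (+0.25 μM Dex), where the sum was 648 and 666. The part of this lower shoot marker sum in the results below was not tested, and in whole seedlings fewer cells of a type and less RNA per cell cannot be told apart.

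The upstream sequences of 2 genes, ORA59 and ERF15, are shown because these genes moved furthest and shared a motif arrangement. They are 60 bases of the TAIR10.1 genome each, 5′ to 3′ on the gene's own strand, at chr1:1882667-1882726 (plus strand) for ORA59 and chr2:13307753-13307812 (minus strand) for ERF15. Capitals mark a GCC box (GCCGCC), the letters CGTCA (the TGA motif TGACG on the opposite strand) and a G box (CACGTG).
ORA59: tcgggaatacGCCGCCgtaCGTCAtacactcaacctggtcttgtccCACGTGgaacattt
ERF15: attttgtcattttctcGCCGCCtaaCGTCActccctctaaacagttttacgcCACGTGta
The GCC box begins at position -230 from the annotated start of ORA59 and -224 from that of ERF15. In both genes 3 bases separate the GCC box from CGTCA, and 30 bases separate it from the G box. From the GCC box to the end of the G box, 28 of 42 positions are identical, 17 of them within the motifs. Searched on both strands in the 500 bases upstream of each gene, a GCC box was found in these 2 of the 10 genes and in 4.12% of 27443 promoters. TGACG was in 32% of promoters, CACGTG in 9.35%, and the W box (TTGACC or TTGACT) in 45.2%. The joined pattern GCCGCCNNNCGTCA, spelled out after these sequences were seen, was in 4 of the 27443 promoters (0.0146%). These are ORA59, ERF15, TL29 (AT4G09010) and AT5G19890. The pattern was written from ORA59 and ERF15 and its count includes them, so it does not measure how unusual the arrangement is. A GCC box and a TGACG anywhere in the window, at any spacing, were in 474 promoters (1.73%). No chance level was computed for the 28 identical positions. ERF104 and ERF6 held none of the 4 motifs in this window. A match is a description of the letters, not evidence of binding.

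At 0.25 μM Dex, P1-12 seedlings held more ORA59, ERF15, ERF104 and ERF1A transcript and less ERF6 transcript than P1-12 seedlings on DMSO. ERF2, ERF5 and ERF105 did not pass the test. Genes were tested with edgeR's quasi-likelihood test if they exceeded 2 CPM in at least 9 libraries, which 16721 genes and 8 of the 10 ERF genes did. ERF1 and ERF13 did not. A call is an adjusted p under 0.05, and by it 4 of the 8 rose and 1 fell. The same call was made for 28.3% (higher) and 29.2% (lower) of all genes in the fit, so 4 of 8 and 1 of 8 are to be read against a comparison in which more than every second gene was called. Their median log2 fold change was 0.58, beside -0.0023 over all tested genes. Under the stricter definition of a significantly differentially expressed gene (SDEG; a 1 log2 unit change or more with adjusted p under 0.0001), ORA59, ERF15 and ERF104 were upregulated and none of the 8 was downregulated, where 5.93% and 8.06% of all tested genes were.

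**Figure D1:**
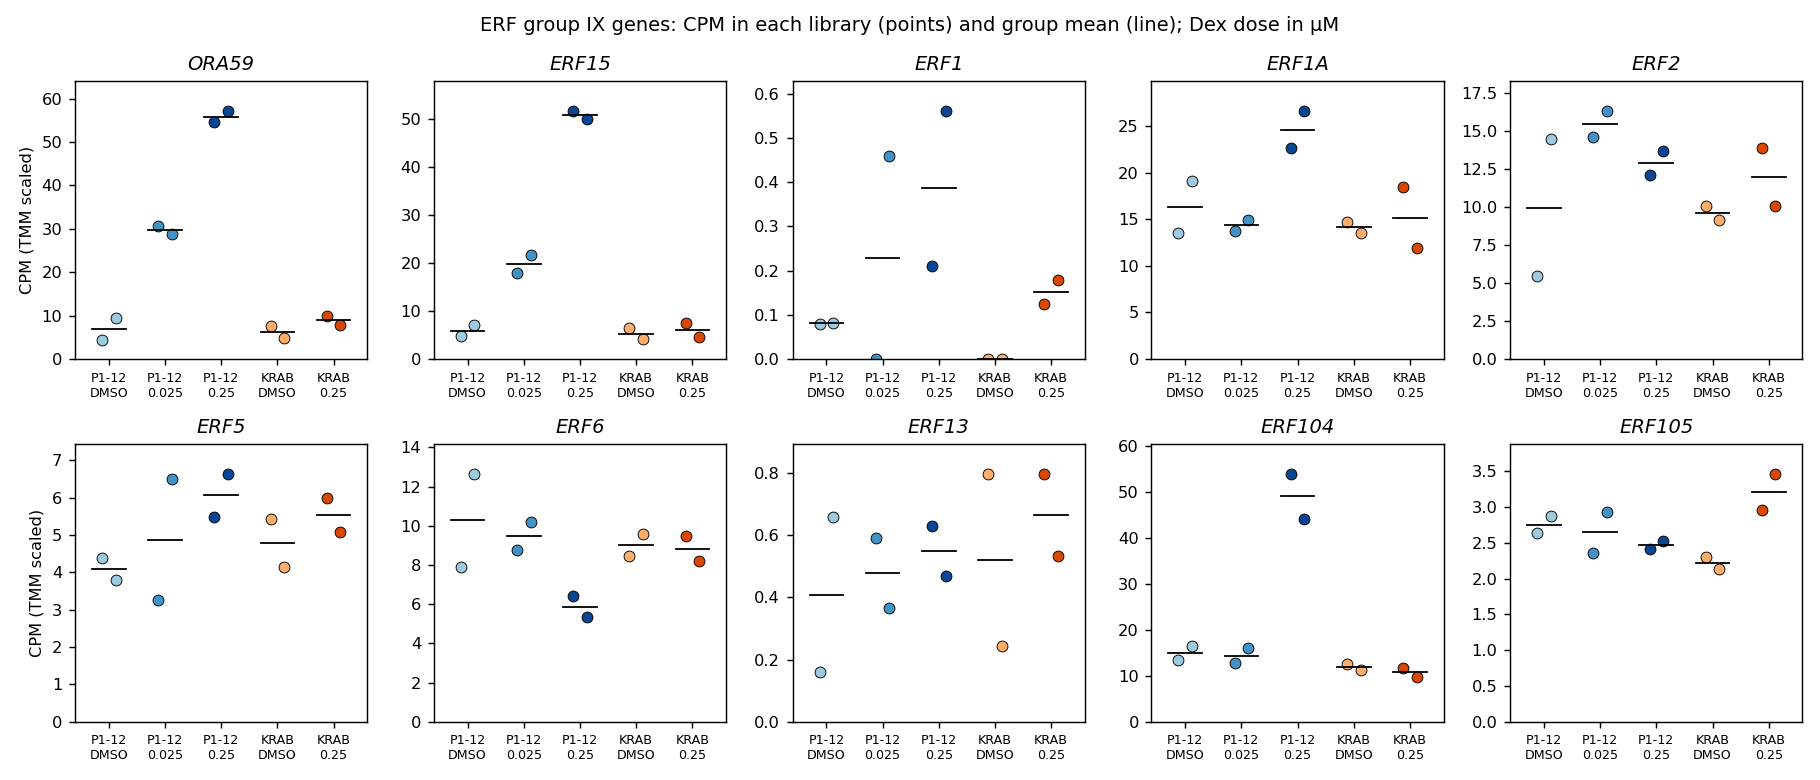
CPM of the 10 ERF genes (vertical axes, TMM scaled, each from 0) in the 5 groups (horizontal axes, Dex dose in μM); points are the 2 libraries of a group and lines their mean. ORA59 and ERF15 stepped up with dose in P1-12, ERF104 stood apart only at 0.25 μM, ERF6 was lowest at 0.25 μM, and ERF1 and ERF13 stayed under 1 CPM.

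ORA59 (AT1G06160, chr1:1882907-1883992, 1 exon) stood at 4.31 and 9.54 CPM in P1-12 (+DMSO), at 30.6 and 28.9 at 0.025 μM Dex and at 54.5 and 57.2 at 0.25 μM Dex. KRAB seedlings held 7.64 and 4.91 CPM on DMSO and 10.03 and 7.83 with Dex. All 4 Dex-treated P1-12 libraries lay above the other 6, and the doses did not overlap. ORA59 rose 8.09-fold at 0.25 μM (95% interval 5.76 to 11.4; log2 fold change 3.02 ± 0.23 SE, adjusted p = 5.66e-08). At 0.025 μM it rose 4.31-fold (3.01 to 6.16; 2.11 ± 0.24, adjusted p = 8.74e-05). Without P1-12 (+DMSO) replicate 2 these log2 fold changes were 3.69 and 2.77, and that of the interaction described below 3.03. Over all single libraries left out, the 3 values ran from 2.55 to 3.69, from 1.63 to 2.77 and from 1.89 to 3.03. Replicate 1 of P1-12 (+DMSO) was the lowest library for ORA59. Of the other tested ERF genes, ERF15, ERF1A, ERF2, ERF6, ERF104 and ERF105 were also lower in it than in replicate 2, and ERF5 was higher. PDF1.2, PDF1.2c, AACT1, VSP1, VSP2 and LOX2 were lower in it as well.

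ERF15 (AT2G31230, chr2:13306431-13307572, 1 exon), described as a positive regulator of immunity and abscisic acid responses, followed nearly the same course. Its CPM were 4.71 and 7.07 in P1-12 (+DMSO), 17.9 and 21.6 at 0.025 μM, 51.8 and 50.1 at 0.25 μM, 6.39 and 4.21 in KRAB on DMSO, and 7.59 and 4.54 in KRAB on Dex. Again both doses lay above every control library without overlap. ERF15 rose 8.65-fold at 0.25 μM (6.30 to 11.9; log2 fold change 3.11 ± 0.21, adjusted p = 2.09e-08) and 3.37-fold at 0.025 μM (2.38 to 4.77; 1.75 ± 0.23, adjusted p = 3.40e-04, short of an SDEG in this fit). With single libraries left out, its log2 fold changes ran from 2.844 to 3.429 at 0.25 μM and from 1.475 to 2.06 at 0.025 μM. The study itself counts ERF15 among its SDEGs at 0.025 μM. Between the doses it gained a further 1.36 ± 0.18 on the log2 scale (adjusted p = 2.72e-05) and ORA59 0.91 ± 0.19 (adjusted p = 0.00117). Over the 10 libraries the log2 CPM of ORA59 and ERF15 had a Pearson r of 0.979, a description in which the points share their libraries and groups.

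ERF104 (AT5G61600, chr5:24766344-24767732, 1 exon), an MPK6 substrate in responses to flagellin, differed from both in its dose course. It was at 13.4 and 16.4 CPM in P1-12 (+DMSO), 12.8 and 15.9 at 0.025 μM, 54.0 and 44.2 at 0.25 μM, 12.6 and 11.2 in KRAB on DMSO, and 11.8 and 9.70 in KRAB on Dex. Only the 0.25 μM P1-12 libraries were high, and the other 8 lay between 9.70 and 16.4 CPM. The rise was 3.29-fold against DMSO (2.67 to 4.07; log2 fold change 1.72 ± 0.14, adjusted p = 1.38e-07) and 1.77 ± 0.15 on the log2 scale against the lower dose (adjusted p = 2.71e-07). At 0.025 μM its log2 fold change was -0.05, with an interval from -0.39 to 0.30. AT5G61590, a group IX gene 832 bases away on the same strand, was at 111 to 118 CPM in P1-12 (+DMSO) and 132 to 133 at 0.25 μM and did not pass the test against DMSO (0.21, adjusted p = 0.141).

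ERF1A (AT4G17500, chr4:9759203-9760391, 1 exon), an activator of GCC box genes, showed a small change. Its CPM were 13.6 and 19.2 in P1-12 (+DMSO), 13.8 and 14.9 at 0.025 μM, 22.6 and 26.7 at 0.25 μM, 14.7 and 13.5 in KRAB on DMSO, and 18.4 and 11.9 in KRAB on Dex. Both 0.25 μM libraries lay above the other 8, by a narrow margin. ERF1A rose 1.51-fold against DMSO (1.14 to 2.00; adjusted p = 0.0151) and by 0.78 ± 0.20 on the log2 scale against 0.025 μM (adjusted p = 0.00446). The first call was lost without P1-12 (+DMSO) replicate 1 (log2 fold change 0.36, adjusted p = 0.165) and without P1-12 (+0.25 μM Dex) replicate 2 (0.47, adjusted p = 0.130). The second was lost without the latter (0.66, adjusted p = 0.0528).

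ERF6 (AT4G17490, chr4:9752824-9754161, 1 exon), an MPK3 and MPK6 substrate that also restrains leaf growth under osmotic stress, moved the other way. It was at 7.90 and 12.7 CPM in P1-12 (+DMSO), 8.76 and 10.2 at 0.025 μM, 6.42 and 5.33 at 0.25 μM, 8.43 and 9.61 in KRAB on DMSO, and 9.48 and 8.19 in KRAB on Dex. The 0.25 μM libraries were the lowest of the 10. ERF6 fell by 0.81 on the log2 scale against DMSO (SE 0.22, adjusted p = 0.00663) and by 0.69 against 0.025 μM (SE 0.23, adjusted p = 0.0217). The call against DMSO was lost without P1-12 (+DMSO) replicate 2 (log2 fold change -0.44, adjusted p = 0.116) or without P1-12 (+0.25 μM Dex) replicate 2 (-0.68, adjusted p = 0.0695). The call against 0.025 μM was lost without P1-12 (+0.025 μM Dex) replicate 2 (-0.58, adjusted p = 0.132) or without P1-12 (+0.25 μM Dex) replicate 2 (-0.56, adjusted p = 0.146). ERF6 and ERF1A are chromosomal neighbours, divergently transcribed with 5041 bases and no annotated gene between them, so a pair of adjacent genes was called in opposite directions.

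ERF2 (AT5G47220, chr5:19171643-19172956), an activator in jasmonate-linked defence, was dominated by a spread in its control. P1-12 (+DMSO) held 5.43 and 14.5 CPM, against 14.6 and 16.3 at 0.025 μM, 12.1 and 13.7 at 0.25 μM, 10.03 and 9.11 in KRAB on DMSO, and 13.9 and 10.1 in KRAB on Dex. Its log2 fold change at 0.25 μM was 0.38 (interval -0.27 to 1.04, adjusted p = 0.303). That value became 1.25 without P1-12 (+DMSO) replicate 2 and -0.17 without replicate 1, so it depends on which control library is kept. ERF5 (AT5G47230, chr5:19179881-19181182), which has 6924 bases and 1 annotated gene between it and ERF2, ranged from 3.25 to 6.64 CPM over the 10 libraries. It had a log2 fold change of 0.57 at 0.25 μM (interval -0.03 to 1.17, adjusted p = 0.0930). It passed without a count filter (adjusted p = 0.0284), as ERF2 did (0.0286), and in a fit of only the groups compared (0.0367).

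ERF105 (AT5G51190, chr5:20800473-20801437), known from cold responses, lay between 2.14 and 3.47 CPM in every library, with a log2 fold change of -0.15 at 0.25 μM (-0.68 to 0.37). All 965 of its exon bases lie within the annotated span of AT5G51180 on the opposite strand. Whether they meet exons of AT5G51180 was not checked. The strand setting of the counting is not given in the sources used here, so it is not known whether reads of the pair were told apart. ERF13 (AT2G44840, chr2:18495215-18496327) had 2 and 8 counts in P1-12 (+DMSO), 6 and 4 at 0.025 μM, 6 and 5 at 0.25 μM, 9 and 7 in KRAB on DMSO, and 32 and 6 in KRAB on Dex, where the 32 came from the deepest library. In a fit on genes above 0.5 CPM in at least 2 libraries its log2 fold change at 0.25 μM was 0.44, with an interval from -1.27 to 2.15. ERF1 (AT3G23240, chr3:8295617-8296604), a primary target of EIN3, had 1 and 1, 0 and 5, 2 and 6, 0 and 0, and 5 and 2 counts in the groups in the same order. It was too low for either filter and was not tested, and 0 counts in KRAB (+DMSO) allow up to 0.0726 CPM (3 counts over the group, counting error only).

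**Figure D2:**
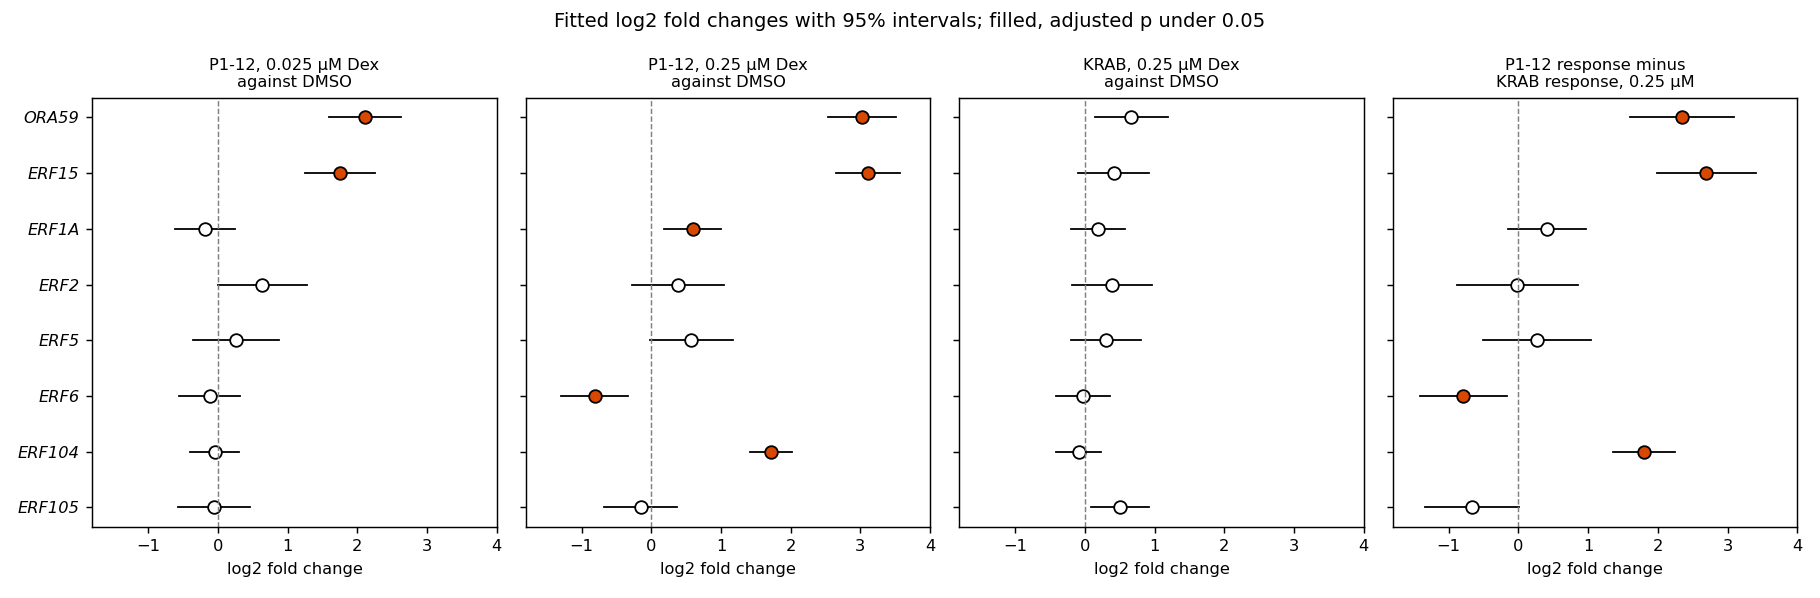
Fitted log2 fold changes (horizontal axes) of the 8 tested ERF genes with 95% intervals, in 4 comparisons; filled points have an adjusted p under 0.05. In P1-12 against DMSO, ORA59 and ERF15 are filled at both doses, and ERF104, ERF1A and ERF6 at 0.25 μM only. No point is filled in the KRAB line. For the P1-12 response minus the KRAB response, ORA59, ERF15, ERF104 and ERF6 are filled.

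Dex in the KRAB line asks what the inducer, a synthetic glucocorticoid, and the repressor do without the guide. None of the 8 tested ERF genes was called there with edgeR, 2 of the 8 had an unadjusted p under 0.05, and DESeq2 called 0, in a comparison where the background was 2.06% higher and 0.813% lower (0.0957% and 0.00598% as SDEGs). Those nearest to a call were ORA59 (log2 fold change 0.67, interval 0.14 to 1.19, adjusted p = 0.179) and ERF105 (0.50, interval 0.08 to 0.93, adjusted p = 0.204). Without a count filter ORA59 passed (0.66, adjusted p = 1.22e-04) at nearly the same log2 fold change. Its interval in the filtered fit lies above 0 but is not adjusted for the number of genes tested. The unfiltered fit also called the defensin gene PDF1.2c in KRAB (adjusted p = 5.41e-24), which the filtered fit did not. Calls made by the unfiltered fit alone are therefore weak. ERF104 (-0.09, interval -0.41 to 0.23) and ERF6 (-0.02, interval -0.41 to 0.37) lay near 0.

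The interaction of line and Dex tests whether P1-12 responded differently from KRAB. The response of P1-12 exceeded that of KRAB by 2.35 ± 0.35 on the log2 scale for ORA59 (adjusted p = 7.68e-05), by 2.70 ± 0.33 for ERF15 (adjusted p = 1.43e-05) and by 1.81 ± 0.21 for ERF104 (adjusted p = 8.23e-06). ERF6 had the opposite sign (-0.79 ± 0.29, adjusted p = 0.0362). ERF1A did not pass (0.41 ± 0.26, adjusted p = 0.217; 0.0418 without a count filter and 0.0145 without KRAB (+0.25 μM Dex) replicate 1), so its rise in P1-12 was not shown to differ from KRAB. In all, 3 of 8 were positive and 1 negative, against 22.9% and 25.1% of the genes in the fit. The 3 positive ones met the SDEG limits, as did 3.91% of genes upward and 5.91% downward. With one or the other P1-12 (+0.25 μM Dex) library left out, 1 of these 3 still met them. For ERF6 the interaction was lost under DESeq2 (-0.77, adjusted p = 0.0735) and without each of 4 single libraries (adjusted p between 0.0779 and 0.234): P1-12 (+DMSO) replicate 2, P1-12 (+0.25 μM Dex) replicate 2, KRAB (+DMSO) replicate 1 and KRAB (+0.25 μM Dex) replicate 1.

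Set directly against KRAB (+0.25 μM Dex), with which it shares the inducer, P1-12 (+0.25 μM Dex) was higher for ORA59 (6.01-fold, 4.45 to 8.12), ERF15 (7.69-fold, 5.77 to 10.2), ERF104 (4.43-fold, 3.61 to 5.44) and ERF1A (1.55-fold, 1.18 to 2.02, adjusted p = 0.00761). It was lower for ERF6 (log2 fold change -0.62, adjusted p = 0.0221). The background there was 29.2% higher and 30.9% lower, and 5.65% and 7.49% as SDEGs, which the first 3 genes were. This comparison shares the P1-12 (+0.25 μM Dex) libraries with those above. Without P1-12 (+0.25 μM Dex) replicate 2, 3 members were called in place of 5, with ERF1A (adjusted p = 0.0913) and ERF6 (adjusted p = 0.167) lost, and ERF6 was also lost without KRAB (+0.25 μM Dex) replicate 1 (adjusted p = 0.174). Between the lines on DMSO no ERF gene was called by edgeR or DESeq2, 1 of 8 had an unadjusted p under 0.05 (ERF104, log2 fold change 0.34), and the background was 0.0120% higher and 0.00% lower. At 0.025 μM 2 of the 8, ORA59 and ERF15, rose and 0 fell, beside 4.55% and 3.46% of the genes in the fit. ORA59 alone of them was an SDEG, beside 0.431% of genes upward and 0.0120% downward, and without P1-12 (+DMSO) replicate 1 or either P1-12 (+0.025 μM Dex) library none was. From 0.025 to 0.25 μM, 4 rose and 1 fell, beside 24.1% and 26.4%, or 3 genes in all without P1-12 (+0.25 μM Dex) replicate 2. ERF15 and ERF104 were SDEGs in that step, beside 3.09% of genes upward and 5.28% downward, and without any 1 of its 4 libraries 1 of the 2 was.

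**Figure D3:**
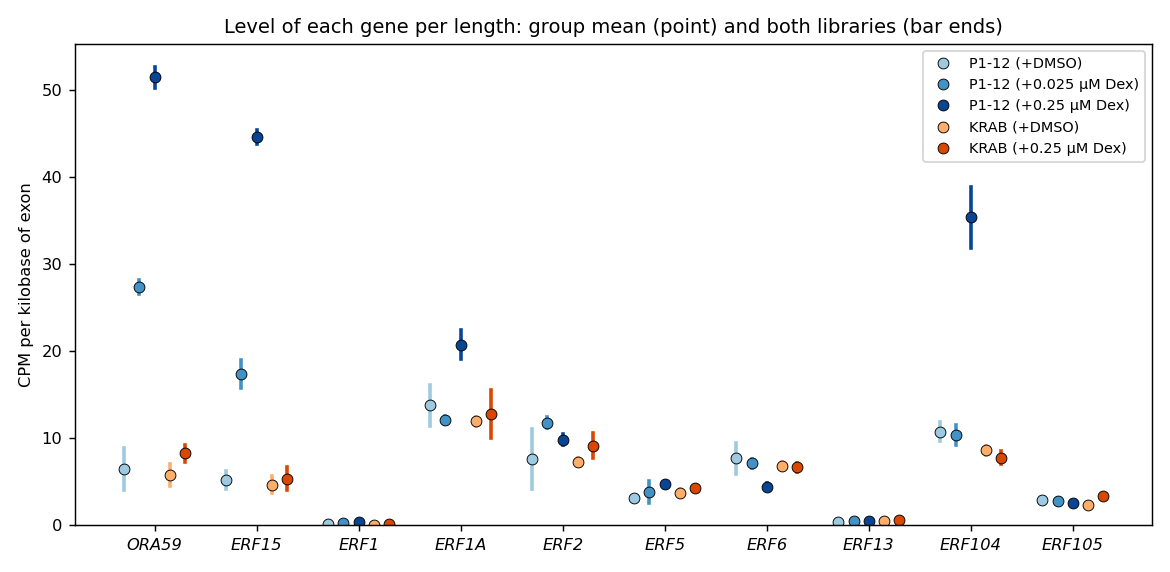
CPM per kilobase of exon (vertical axis) of the 10 ERF genes in the 5 groups; points are group means and bars span both libraries. In the 3 groups without a rise ERF1A leads, and in P1-12 (+0.25 μM Dex) ORA59, ERF15 and ERF104 do.

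Per kilobase of exon, the order of the 10 genes was reset by the treatment. In P1-12 (+DMSO) ERF1A led with a mean of 13.8 CPM per kb, followed by ERF104 at 10.7, ERF6 at 7.69, ERF2 at 7.57, ORA59 at 6.38, ERF15 at 5.16, ERF5 at 3.14 and ERF105 at 2.86, with ERF13 at 0.367 and ERF1 at 0.0820. Libraries overlapped between ERF1A and ERF104, between ERF104 and ERF2, among ERF6, ERF2, ORA59 and ERF15, and between ERF5 and ERF105, so the order of these genes is not settled. At 0.25 μM ORA59 led at 51.4 CPM per kb (50.2 and 52.6), ahead of ERF15 at 44.6 (43.8 and 45.4) and ERF104 at 35.3 (31.8 and 38.9), and these 3 did not overlap with each other or with ERF1A at 20.7. ERF2 at 9.81 came next, and ERF5 at 4.65 and ERF6 at 4.39 overlapped. Summed over the 10 genes, P1-12 libraries held 56.6 and 86.7 CPM on DMSO, 105 and 118 at 0.025 μM and 207 and 210 at 0.25 μM, beside 59.1 to 81.0 in KRAB.

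Most other group IX genes were below the filter of 2 CPM in at least 9 libraries. Of 7 further genes, 2 passed the filter (AT5G07580 and AT5G61590), and edgeR called neither at 0.25 μM against DMSO (adjusted p = 0.947 and 0.141). AT5G61590 was called higher at 0.25 than at 0.025 μM (0.37, adjusted p = 0.0167) and in P1-12 than in KRAB at 0.25 μM (0.41, adjusted p = 0.00674). ESE1 had 0 counts in every library, and TDR1, which lies 5452 bases from ERF1, stayed under 0.4 CPM. AT5G43410, which also failed the filter, had 0 counts in both P1-12 (+DMSO) libraries and in all 4 KRAB libraries, 26 counts in all at 0.025 μM and 52 at 0.25 μM. Against a floor of 3 counts over the DMSO group it was at least 10.4-fold higher at 0.025 μM and at least 22.9-fold higher at 0.25 μM.

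Of 9 genes known as targets of ORA59 and ERF1, 7 were tested, and all 7 were higher at 0.25 μM, each as an SDEG (beside 28.3% of all genes higher and 5.93% as upregulated SDEGs), with a median log2 fold change of 2.93 beside -0.0023 over all tested genes. PDF1.2, a plant defensin with antifungal activity, was at 2.07 and 13.9 CPM in P1-12 (+DMSO), 359 and 402 at 0.025 μM, 383 and 348 at 0.25 μM, 7.90 and 4.35 in KRAB on DMSO, and 30.0 and 17.6 in KRAB on Dex. PR4, a chitin-binding protein, was at 90.9 and 129, 554 and 601, 1061 and 1063, 117 and 78.6, and 170 and 156 CPM in the same order. PDF1.2 had already reached its level at the lower dose, while PR4 went on rising with ORA59 and ERF15.

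At 0.25 μM the log2 fold changes were 5.53 ± 0.40 for PDF1.2 (adjusted p = 4.10e-08), 5.39 ± 0.32 for PDF1.3, 3.28 ± 0.17 for PR4, 2.93 ± 0.42 for PDF1.2c and 1.99 ± 0.09 for PR3, a basic chitinase. Without P1-12 (+DMSO) replicate 1 PDF1.2 was at 4.71 and PDF1.2c at 2.10, and without replicate 2 PDF1.2 was at 7.45, PDF1.2c at 4.93 and PDF1.3 at 6.12. At 0.025 μM 6 of the 7 were higher, beside 4.55% of all genes. On the log2 scale PDF1.2 rose by 5.58, PDF1.3 by 4.31, PDF1.2c by 4.48, PR4 by 2.40 and PR3 by 0.73. The acyltransferase gene AACT1 rose by more than 4. Without P1-12 (+DMSO) replicate 1 the values at this dose were 4.76 for PDF1.2 and 3.65 for PDF1.2c, and without replicate 2 they were 7.50, 6.47 and, for PDF1.3, 5.03. PDF1.2c and AACT1 were lower at 0.25 than at 0.025 μM (log2 fold changes -1.55, adjusted p = 9.99e-04, and -1.50, adjusted p = 5.50e-04), against the direction of ORA59 and ERF15 between these doses. The osmotin gene OSM34 did not pass at 0.025 μM (-0.33) and rose at 0.25 μM (1.66). Some defensin genes hold 50-base stretches also found elsewhere in the genome. These were 0.624% of the stretches of PDF1.2, 0.667% of PDF1.2c, 5.36% of PDF1.3 and 5.48% of PDF1.2b, and 0% of PDF1.1. Where the other copies lie was not recorded, and reads from these stretches could be assigned to more than 1 place.

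**Figure D4:**
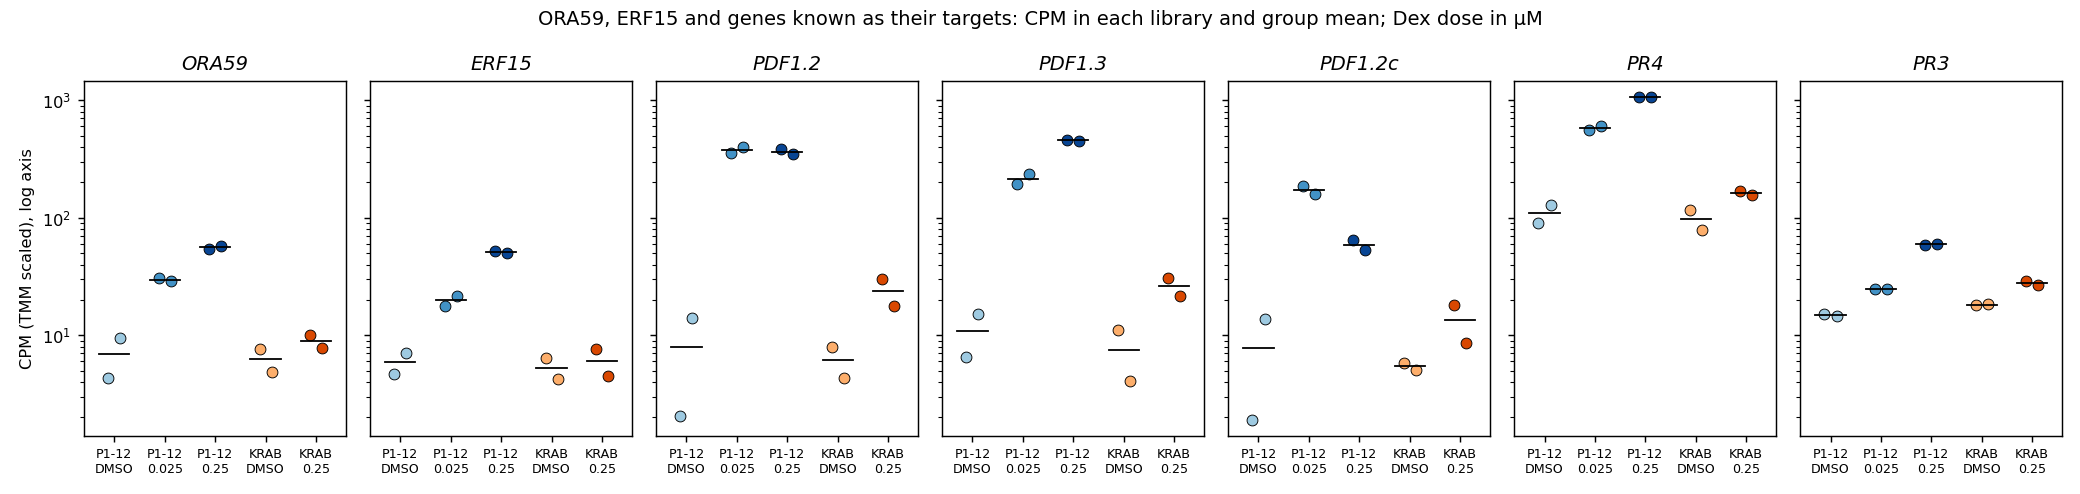
CPM (vertical axis, TMM scaled, log axis) of ORA59, ERF15 and 5 genes known as targets of ORA59 and ERF1 in the 5 groups (Dex dose in μM); points are the 2 libraries, lines the group mean. The Dex-treated P1-12 libraries lie above all others in every panel except PR3, where KRAB (+0.25 μM Dex) at 28.8 and 26.8 CPM lies above P1-12 (+0.025 μM Dex) at 25.0 and 24.7.

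In KRAB with Dex 5 of these 7 targets were also higher, beside the 2.06% of all genes, although no ERF gene was called there. These were PDF1.2 (log2 fold change 2.17, adjusted p = 0.0144), PDF1.3 (2.05, 0.00485), PR4 (0.76, 0.0231), PR3 (0.62, 7.29e-04) and OSM34 (0.59, 0.0259). For PDF1.2, PDF1.3 and PR4 the call was lost under DESeq2 (adjusted p = 0.301, 0.0756 and 0.0867) and without KRAB (+DMSO) replicate 2 (PDF1.3 then at 1.28) or KRAB (+0.25 μM Dex) replicate 1, and for PR4 also in a fit of only the groups compared (0.0747). By the interaction, 6 of the 7 responded more in P1-12, beside 22.9% of all genes. A GCC box stood upstream of PDF1.2, PDF1.2b, PR4, OSM34 and AACT1 and not of PDF1.2c, PDF1.3, PR3 or PDF1.1 within 500 bases. The windows around 2 of them are shown beside the ORA59 and ERF15 stretches above, with the GCC box in capitals, at chr5:17907846-17907869 (minus strand) for PDF1.2 and chr3:1287134-1287157 (minus strand) for PR4.
PDF1.2: gattaaccaGCCGCCcatgtgaac
PR4: tcacaattaGCCGCCtctcctcat
In neither window does CGTCA follow the GCC box as it does in ORA59 and ERF15.

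Of 5 genes known downstream of ERF6, 4 were tested and 3 were higher at 0.25 μM, beside 28.3% of all genes: MYB51, an indole glucosinolate regulator, at 5.27 ± 0.11 on the log2 scale, the zinc finger gene ZAT10 at 2.11 ± 0.24 and the immune factor gene WRKY33 at 1.85 ± 0.17. MYB51 went from 6.62 and 6.66 CPM in P1-12 (+DMSO) to 74.7 and 79.6 at 0.025 μM and 263 and 251 at 0.25 μM, and was at 7.37 and 5.54 in KRAB on DMSO and 17.4 and 15.8 in KRAB on Dex. The same 3 were higher at 0.025 μM (3.54, 1.07 and 0.93, beside 4.55% of all genes), where ERF6 had a log2 fold change of -0.11 (adjusted p = 0.817). The gibberellin oxidase gene GA2OX6 did not pass at 0.25 μM (-0.42, adjusted p = 0.0848). In KRAB with Dex 1 of the 4 tested genes, MYB51, was also higher and met the SDEG limits, beside 2.06% and 0.0957% of all genes.

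In the MAP kinase cascade upstream of ERF5, ERF6 and ERF104, 6 of 6 were higher at 0.25 μM, beside 28.3% of all genes, led by MPK3 (1.21 ± 0.10, adjusted p = 1.10e-07; 44.3 and 55.4 CPM on DMSO, 115 and 116 at 0.25 μM). MEKK1 followed at 0.89, MKK9 at 0.84, MKK4 at 0.53 and MPK6 at 0.49. In ethylene perception and signalling 9 of 11 were higher and 0 lower, beside 28.3% and 29.2% of all genes, with a median of 0.54: the receptor genes ETR2 (1.29) and EIN4 (0.83), the F-box gene EBF2 (1.07) and CTR1 (0.81), a kinase that holds the pathway off. EIN3, the factor upstream of ORA59 and ERF1, rose by 0.36 ± 0.07 (adjusted p = 7.34e-04; 162 and 167 CPM on DMSO, 201 and 222 at 0.25 μM). The higher genes include receptors, EBF2 and CTR1, which are known to act negatively in ethylene signalling, and also EIN3. The direction in which signalling itself moved was not tested.

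Of 7 genes of jasmonate synthesis, perception and the MYC2 branch, 5 were tested, of which 2 fell and 1 rose, shares near the 29.2% and 28.3% of all genes. LOX2 and AOS, which act in jasmonate synthesis, fell by 4.56 and 2.39 on the log2 scale at 0.25 μM (adjusted p = 1.85e-08 and 1.33e-07; LOX2 -3.92 without P1-12 (+DMSO) replicate 2), and the receptor gene COI1 rose by 0.27. MYC2 itself was at 31.9 and 58.4 CPM on DMSO and 42.1 and 50.8 at 0.25 μM (0.05 ± 0.19, adjusted p = 0.857), and without P1-12 (+DMSO) replicate 1 its value was -0.33 (adjusted p = 0.0358) and without replicate 2 0.54 (adjusted p = 0.00325). VSP1 and VSP2, storage protein genes used as markers of this branch, failed the count filter, being at 0.632 to 1.87 CPM at 0.25 μM. On DMSO VSP2 was at 145 and 375 CPM and VSP1 at 78.1 and 295. In the wider fit their log2 fold changes were -6.85 for VSP1 and -8.42 for VSP2.

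Early touch and wound genes were checked because several ERF genes answer handling within minutes. Of 12 tested of 15, 8 were higher and 1 lower at 0.25 μM, beside 28.3% and 29.2% of all genes, with a median of 0.57. At 0.025 μM 5 were higher and 0 lower, beside 4.55% and 3.46%. ZAT10 (2.11), CZF1 (1.92), ZAT12 (1.91) and ATL2 (1.44) led, while WRKY40 (-0.06) and CML38 (0.19) did not pass and the calmodulin-like gene TCH3 fell. Their summed CPM ran from 326 to 365 in P1-12 (+DMSO), 390 to 454 at 0.025 μM, 433 to 435 at 0.25 μM and 267 to 350 in KRAB. The part of this in the ERF values was not tested. Among root markers 3 of 10 were higher (PIN2 0.47, CASP1 0.45, PHT1;1 0.18) and 1 lower (RHD2 -0.49), and among shoot markers 2 of 8 were higher and 5 lower, beside the same 28.3% and 29.2%, with SPCH at 2.88, CER1 at -3.14, PDF1 at -1.87 and FAMA at -1.37.

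Outside the gene lists, the tested genes most like each ERF gene over the 10 libraries are given as a description. They were PLA2A (AT2G26560, r = 0.996), a defence-related patatin-like lipase gene, AT4G18250 (0.991) and AT2G34355 (0.991) for ORA59. For ERF15 they were AT4G19450 (0.994), WRKY18 (0.992) and IP5PII (0.991), and for ERF104 AT2G05320 (0.995), PUB13 (0.989) and PEX13 (0.989). For ERF6 the nearest were AT2G17580 (0.985), ATBETAFRUCT4 (0.976) and AT2G28460 (0.965), and for ERF1A AT5G46890 (0.974), COX19-1 (0.950) and AT2G26240 (0.947). ERF5 was nearest to GLB3 (0.974), AT1G12390 (0.952) and AT2G41970 (0.942). Those of ERF2 (AT2G04100 0.924, VFB2 0.922, AT1G69680 0.891) and ERF105 (PDIL2-2 0.891, sks16 0.889, AT4G28550 0.882) were looser. Within the group, ERF104 had r = 0.875 with ERF15, 0.786 with ORA59 and 0.862 with ERF1A, and ERF6 had r = -0.672 with ERF104.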

How the data were processed

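RNA from 2 samples per group was sequenced as paired-end reads. The study's methods call these samples biological replicates where they describe an RNA editing analysis of the same data. No source used here says whether the samples came from separate cultures, so p-values measure only the spread between them. Per the study's methods, the authors trimmed reads with Trimmomatic (phred 33, minimum length 36), aligned them with TopHat2 to TAIR10 and counted reads per locus with HTSeq. The deposited values are raw counts. Tool versions and HTSeq's strand option are not given in the sources used here. Totals were 9139050 to 40544617 counts per library, which limits genes with few counts.

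Counts were fitted with edgeR 4.0.16 under R 4.3.3 (quasi-likelihood test after TMM scaling, 5 group means, Benjamini-Hochberg adjustment over all 16721 genes above 2 CPM in at least 9 libraries). A call is an adjusted p under 0.05. CPM are TMM scaled, and r used log2 CPM with a prior count of 2. Genes under the filter were read from a fit with 0.5 CPM in at least 2 libraries (20742 genes). The scripts were tested on simulated data. Alternatives were other filters, RLE size factors, DESeq2 1.42.0, edgeR's exact test, only the groups compared, a replicate block and leaving out each library. The members and gene lists were chosen with earlier results of these data known. Named were all members, in each list up to 4 called genes with the largest change at 0.25 μM Dex, 7 fixed genes, and the 3 most alike genes per member. Other genes (OSM34, AACT1, GA2OX6, AT5G43410, AT5G07580, AT5G61590, ESE1, TDR1, VSP1, VSP2, TCH3, WRKY40, CML38) were named after their values were seen. Positions, names and sequences are from RefSeq's TAIR10.1 annotation. The MORF2 locus (AT2G33430) was taken from general knowledge.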

Additional observations from a re-analysis of the deposited data

Results flagged for a closer look

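The response to 0.25 μM Dex differed between P1-12 and KRAB by the interaction test for 4 of the 8 tested ERF genes. Over all tested genes the same test called 22.9% higher and 25.1% lower, so the count itself is near the background. On the log2 scale the differences were 2.35 for ORA59, 2.70 for ERF15, 1.81 for ERF104 and -0.79 for ERF6. The ERF6 call did not hold under DESeq2 and some other alternatives, as described above. With 2 libraries per group, no library could be tested for standing apart from its group.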

How the results depend on the processing

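At 0.25 μM Dex the calls of ORA59, ERF15 and ERF104 in P1-12 held under every alternative run. Of 639 alternative values for ERF genes, 579 kept direction and side of the threshold, 15 lost the call, 10 gained it and 35 changed sign, and of 484 for other named genes these numbers were 458, 21, 3 and 2. Of 158 alternative counts, 19 moved by over 1.5 times. The cause of these shifts was not tested. ERF genes called as SDEGs at 0.025 μM numbered 1, but 2 with no count filter, DESeq2 or edgeR's exact test, and 0 with the replicate block or only the groups compared. From 0.025 to 0.25 μM there were 2, and 1 with DESeq2. In KRAB 0 were called, and 1 with no count filter. The replicate numbers did not pair the samples (correlation of deviations -0.127 to 0.0710). With the replicate block ERF6 in KRAB became 0.01857, and 2 ERF genes met the SDEG limits for the interaction in place of 3. The ERF2 interaction, near 0, became 0.01081 with the wider filter, 0.004762 with no filter, 0.003286 with RLE size factors and 0.06044 with DESeq2.

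Leaving out each library in turn gave 3 to 5 called ERF genes at 0.25 μM against DMSO, 3 to 5 from 0.025 to 0.25 μM and 3 to 5 between the lines at 0.25 μM. SDEGs numbered 0 to 1 at 0.025 μM, 1 to 1 from 0.025 to 0.25 μM and 1 to 3 for the interaction. Log2 fold changes that changed sign (none of them called with all libraries) ranged as follows. At 0.25 μM against DMSO ERF2 ran from -0.1667 to 1.246 and MYC2 from -0.3286 to 0.5411. At 0.025 μM ERF6 ran from -0.4272 to 0.2517, ERF1A from -0.4247 to 0.07187, ERF5 from -0.3317 to 0.6665, ERF105 from -0.2212 to 0.08768 and ERF104 from -0.2172 to 0.098. From 0.025 to 0.25 μM ERF5 ran from -0.08681 to 0.9033 and ERF105 from -0.2328 to 0.06789. In KRAB ERF15 ran from -0.1256 to 0.6448, ERF6 from -0.1659 to 0.08732, ERF1A from -0.2354 to 0.3974 and ERF104 from -0.2784 to 0.004342. Between the lines at 0.25 μM ERF2 ran from -0.1018 to 0.3655 and ERF5 from -0.05301 to 0.2668. Between the lines on DMSO ORA59 ran from -0.4371 to 0.7072, ERF15 from -0.1168 to 0.5147, ERF6 from -0.2072 to 0.4715, ERF1A from -0.04238 to 0.4543 and ERF2 from -0.7981 to 0.6149. For the interaction ERF2 ran from -0.5515 to 0.8626. ERF1 and ERF13, with few counts, stayed under the count filter.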
